A study of Mus musculus with 8 samples.

Results

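A set of 10 genes of the fibroblast growth factor (FGF) family was followed in RNA of the left ventricle (LV): the ligands *Fgf1*, *Fgf2*, *Fgf16* and *Fgf18*, the intracellular homologous factors *Fgf12* and *Fgf13*, and the receptors *Fgfr1*, *Fgfr2*, *Fgfr3* and *Fgfr4*. They were chosen by symbol, with earlier results of these data known, and are 10 of the 46040 genes listed. Of these 10, 7 had a CPM (counts after scaling to library totals) of 1 or more in 2 or more libraries and entered the test with 13542 genes in all, and *Fgf12*, *Fgfr2* and *Fgfr4* did not. The study asked how loss of VEGFR-1 signaling changes the heart under pressure overload. Male C57BL/6 mice, 5 to 7 months of age, received angiotensin II (angII) from subcutaneous pumps at 0.1 mg/kg/h, and LVs were taken from survivors on day 14. One group of 4 libraries, named dVEGFR1TK2, carries the genotype tag VEGFR1_TK -/-, an allele of *Flt1* that lacks the part coding for the tyrosine kinase domain of VEGFR-1 in every cell of the mouse, and the other 4, named WT2, are tagged wildtype and come from littermates. All mice received angII, so that effects of angII itself cannot be read from these libraries. The paper reports lower survival during angII for mice without the kinase domain than for controls. The groups were thus survivors to unequal degrees, and the part of this in the differences below was not tested.

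The sample titles name the opposite genotype for every library. Groups were taken from the library names and tags, and each difference below sets dVEGFR1TK2 against WT2 and changes its sign if the titles hold. The targeted gene *Flt1* had a normalized CPM of 69.3 ± 11.3 in WT2 and 158 ± 13.2 in dVEGFR1TK2 (SD, n = 4 each), with an FDR of 0.00808 by edgeR's quasi-likelihood test, and reads summed over all its exons cannot show whether the kinase domain is present. Library names mention cardiomyocytes, whereas the labelled source is LV tissue. All 6 cardiomyocyte markers examined passed the filter, as did all 5 markers each of fibroblasts, endothelium, smooth muscle with pericytes, and leukocytes. The 4 atrial genes summed to 3.68 to 5.90 normalized CPM. The 4 adipocyte genes summed to 0 to 1.35 in WT2 and 0 to 0.0797 in dVEGFR1TK2, with no count of *Plin1* and *Lep* in any library. Sums of 4 mesothelial genes were 17.2 to 59.3 in WT2 and 17.6 to 58.6 in dVEGFR1TK2. For 4 genes of Schwann cells and nerve they were 8.88 to 12.0 and 8.43 to 15.1, and for 4 genes of red blood cells 295 to 734 and 342 to 574. Between 11449137 and 16239670 counts per library fell on genes, which puts a CPM of 1 at 11.4 to 16.2 reads. In bulk tissue, fewer cells of a type and less RNA per cell cannot be told apart.

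FGF ligands bind receptor tyrosine kinases at the cell surface together with heparan sulfate, and the receptors signal through the adaptor Frs2 to the Ras and ERK pathway and through phospholipase C gamma. In the heart, FGF signaling is known from development, vessel growth, the survival of cardiomyocytes and hypertrophy. The homologous factors share the fold of the ligands but stay inside the cell, where they bind the tails of voltage-gated sodium channels, and do not act as classical ligands of the receptors.

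The receptors differed widely in level, since *Fgfr3* was well counted in every library while *Fgfr2* and *Fgfr4* were close to the limit of detection. The RefSeq promoter windows of these 3 receptors, 250 bases before to 50 bases after a start site in GRCm38.p6, are printed for that reason, with every GC box, the letters GGGCGG on either strand, in capitals. The *Fgfr3* window lies at chr5:33721474-33721773 on the plus strand, the *Fgfr4* window at chr13:55152568-55152867 on the plus strand and the *Fgfr2* window at chr7:130266759-130267058 on the minus strand. Each is written 5′ to 3′ along its gene.
Fgfr3: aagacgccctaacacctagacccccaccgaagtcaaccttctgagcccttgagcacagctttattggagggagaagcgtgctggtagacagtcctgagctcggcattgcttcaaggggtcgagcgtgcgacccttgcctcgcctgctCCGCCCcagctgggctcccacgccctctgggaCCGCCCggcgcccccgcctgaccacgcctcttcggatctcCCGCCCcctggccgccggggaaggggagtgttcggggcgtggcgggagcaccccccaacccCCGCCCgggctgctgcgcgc
Fgfr4: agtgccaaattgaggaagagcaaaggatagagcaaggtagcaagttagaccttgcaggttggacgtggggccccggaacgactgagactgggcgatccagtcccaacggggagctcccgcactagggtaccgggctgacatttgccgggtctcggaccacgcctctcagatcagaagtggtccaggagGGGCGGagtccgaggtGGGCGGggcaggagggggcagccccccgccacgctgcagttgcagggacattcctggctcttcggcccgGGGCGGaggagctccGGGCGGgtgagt
Fgfr2: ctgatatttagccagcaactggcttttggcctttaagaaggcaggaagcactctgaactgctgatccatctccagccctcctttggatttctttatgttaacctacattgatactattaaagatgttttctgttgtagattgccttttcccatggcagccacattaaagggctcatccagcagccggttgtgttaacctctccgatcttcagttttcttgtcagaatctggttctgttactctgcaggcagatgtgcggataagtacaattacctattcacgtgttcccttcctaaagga

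This first of the 2 *Fgfr3* windows held 4 GC boxes and 26 CG dinucleotides at a GC content of 69.7%. The *Fgfr4* window was much alike, with 4 GC boxes, 20 CG dinucleotides and 65.3% GC, although the gene was scarcely counted. In the *Fgfr2* window there was no GC box, only 4 CG dinucleotides, and 43.7% GC. Of 32851 windows of the same length, 35.7% held a GC box, and the medians were 52.7% GC and 7 CG dinucleotides. The second *Fgfr3* window, not printed, held 2 GC boxes and 30 CG dinucleotides at 73% GC. Of the abundant receptor genes only *Fgfr3* had a window, so a relation of GC boxes to level cannot be read from these windows. The homologous factors allow no such reading either, with *Fgf13* alone set against *Fgf12*. *Fgf13* had 4 windows with 4 GC boxes in 2 of them and none in the others, and *Fgf12* had 4 windows with 2 GC boxes in 3 of them and none in the fourth. Windows were found for 7 of the 10 members, not for *Fgf1*, *Fgf16* and *Fgfr1*. Gene counts do not show which start site was used.

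Levels of different members were compared as normalized CPM per kilobase of exon, that is, counts scaled by library size and TMM factor and divided by the length of all exons of the gene. *Fgf1*, which has no classical signal peptide and is a ligand of all 4 receptors, had by far the highest level, 33.9 ± 4.80 (SD, n = 8), above 90.4% of the genes tested. *Fgf13* followed at 10.8 ± 2.25, above 72.8% of them. The receptors *Fgfr1* (5.24 ± 0.808) and *Fgfr3* (4.90 ± 1.04) and the ligand *Fgf16* (4.68 ± 1.12) lay next to each other, close to the middle of the genes tested. *Fgf18* reached 3.32 ± 0.706 and *Fgf2* 1.55 ± 0.385. The other 3 were at 0.0644 ± 0.0263 (*Fgfr2*), 0.0514 ± 0.0302 (*Fgfr4*) and 0.0203 ± 0.0146 (*Fgf12*).

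**Figure D1:**
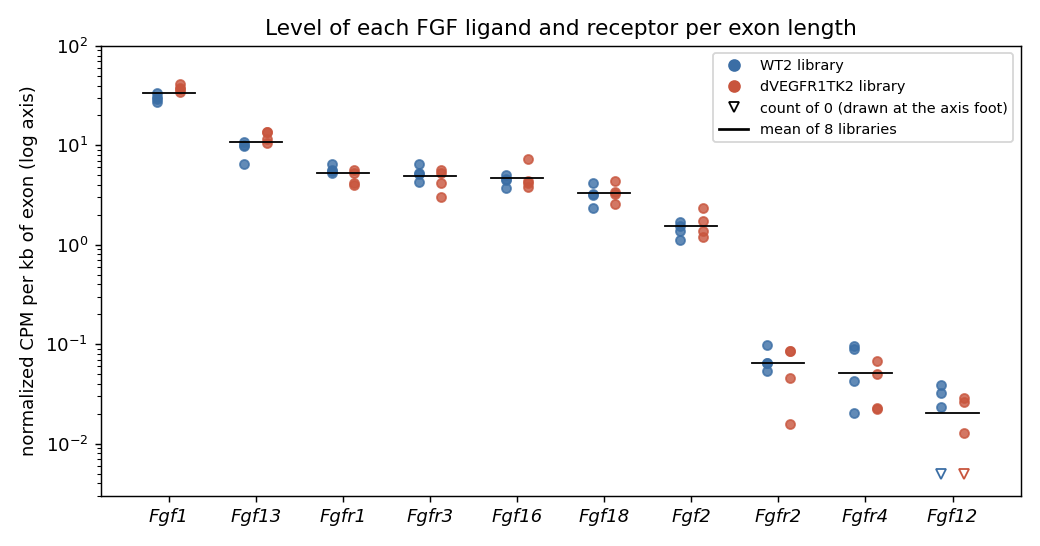
Normalized CPM per kilobase of exon (log axis) of each of the 10 genes, with 1 point per library, WT2 in blue and dVEGFR1TK2 in red, and a line at the mean of all 8 libraries (open triangles at the foot stand for a count of 0). *Fgf1* stands at the top in every library, *Fgfr1*, *Fgfr3* and *Fgf16* overlap, and *Fgfr2*, *Fgfr4* and *Fgf12* lie more than an order of magnitude below the rest.

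Neighbours in this order were compared over the 8 libraries with an exact 2-sided sign-flip permutation test on log2 levels (0.5 added to each count, smallest p 0.0078), adjusted over 9 pairs. The order came from the means of these same libraries, so the tests describe its spread over libraries and are no independent check of it. *Fgf1* exceeded *Fgf13* by a ratio of 3.17 in 8 of 8 libraries (adjusted exact p = 0.0141), and *Fgf13* exceeded *Fgfr1* by 2.04 in all 8 libraries (adjusted exact p = 0.0141). *Fgfr1* and *Fgfr3* did not differ beyond their spread on this scale, with a ratio of 1.08 and *Fgfr1* higher in 6 of 8 libraries (adjusted exact p = 0.422), nor did *Fgfr3* and *Fgf16*, with a ratio of 1.04 (adjusted exact p = 0.781). *Fgf16* exceeded *Fgf18* by 1.40 (adjusted exact p = 0.0352, 7 of 8 libraries), *Fgf18* exceeded *Fgf2* by 2.16 and *Fgf2* exceeded *Fgfr2* by 24.5 (adjusted exact p = 0.0141 for both, all 8 libraries). The last 3 genes were counted so rarely that the added 0.5 shapes their order, and no order is read among them. With the longest transcript as the length in place of all exons, the 10 genes stood in the same order but several neighbour tests changed sides. On that scale *Fgfr1* exceeded *Fgfr3* by 1.25 (adjusted exact p = 0.0301, 7 of 8 libraries) and *Fgfr3* exceeded *Fgf16* by 1.76 (adjusted exact p = 0.0234, 7 of 8 libraries). The difference of *Fgf16* and *Fgf18* was then 1.28 (adjusted exact p = 0.0879, 6 of 8 libraries). Which of these neighbours differ thus depends on the length, and only *Fgf1* over *Fgf13* over *Fgfr1*, *Fgf18* over *Fgf2* and *Fgf2* over *Fgfr2* passed on both scales.

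*Fgf1* (ENSMUSG00000036585, chromosome 18 of GRCm38, 38838673 to 38929472, minus strand) had 2044 to 2572 counts per library. Its normalized CPM was 182, 148, 159 and 168 in WT2 replicates 1 to 4, and 199.7, 228, 189.5 and 205 in dVEGFR1TK2 replicates 1 to 4. Every dVEGFR1TK2 library was above every WT2 library, the closest being dVEGFR1TK2 replicate 3 and WT2 replicate 1. The means were 164 ± 14.1 and 206 ± 16.4 normalized CPM (SD, n = 4 each), a log2 fold change of 0.32 (SE 0.10, 95% interval 0.11 to 0.54), or a ratio of 1.25. The exact permutation test gave p = 0.0286, the smallest that 4 libraries against 4 allow, but the FDR over all genes was 0.453 by edgeR's quasi-likelihood test and *Fgf1* was not called. Calls required an FDR below 0.1 and a change by at least 1.5 times in either direction, and the ratio of 1.25 had a 95% interval of 1.08 to 1.45.

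*Fgf2* (ENSMUSG00000037225, chromosome 3, 37348346 to 37410108, plus strand), the basic FGF, acts on vessel cells and fibroblasts as well as on cardiomyocytes. It was counted 95 to 179 times per library. Normalized CPM was 11.5, 10.5, 9.42 and 7.60 in WT2 replicates 1 to 4 and 11.8, 15.9, 8.22 and 9.41 in dVEGFR1TK2 replicates 1 to 4. The groups overlapped and their means, 9.75 ± 1.67 and 11.3 ± 3.39 (SD, n = 4 each), differed by less than the spread (log2 fold change 0.21, 95% interval −0.24 to 0.66, FDR = 0.791). The log2 fold change was 0.0042 without dVEGFR1TK2 replicate 2, 0.11 without WT2 replicate 4 and 0.34 without dVEGFR1TK2 replicate 3. Exons of *Fgf2* share 640 bases with *Nudt6*, a gene of the opposite strand that is known as an antisense partner of *Fgf2*, and 255 bases with *Gm43439* on the same strand. *Nudt6* had 196 to 253 counts per library and normalized CPM of 16.1 ± 2.42 and 19.5 ± 1.77 (SD, n = 4 each), a log2 fold change of 0.28 (SE 0.13, FDR = 0.557). *Gm43439* was not found by name among the genes listed. Whether strand entered the counting was not given in the sources used here, so reads in the shared bases cannot be assigned to one of the genes.

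*Fgf16* (ENSMUSG00000031230, chromosome X, 105764279 to 105774939, plus strand) codes for a secreted ligand of the *Fgf9* subfamily that is known for its expression in the heart. Its normalized CPM was 8.31, 7.55, 7.33 and 6.08 in WT2 replicates 1 to 4. The dVEGFR1TK2 replicates 1 to 4 had 6.26, 11.9, 6.95 and 7.17. Replicate 2 stood far above the other three of its group, and the groups overlapped otherwise. The log2 fold change was 0.14 (95% interval −0.31 to 0.58, FDR = 0.871), and without dVEGFR1TK2 replicate 2 it was −0.11 (FDR = 0.969).

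*Fgf18* (ENSMUSG00000057967, chromosome 11, 33117430 to 33147400, minus strand), a secreted ligand best known from bone and lung, had 39 to 69 counts per library. It was at 3.89, 5.01, 2.76 and 3.76 normalized CPM in WT2 replicates 1 to 4 and at 5.20, 3.82, 3.08 and 3.99 in dVEGFR1TK2 replicates 1 to 4. The ranges of the groups nearly coincided. Its log2 fold change of 0.06 had a 95% interval from −0.43 to 0.56 (FDR = 0.954), and its sign turned without WT2 replicate 3 (−0.075) or dVEGFR1TK2 replicate 1 (−0.086).

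Together, the 4 ligands gave a pool dominated by *Fgf1*, which made up 76.7% ± 3.03 of their summed level per kilobase in WT2 and 79.2% ± 2.06 in dVEGFR1TK2 (SD, n = 4 each; exact permutation p = 0.229). *Fgf16* contributed 11.3% ± 1.21 and 10.2% ± 2.17, *Fgf18* 8.31% ± 2.13 and 7.15% ± 1.62, and *Fgf2* 3.66% ± 0.533 and 3.46% ± 0.681. None of these shares differed beyond the spread between libraries, the other exact permutation tests giving p from 0.371 to 0.714. *Fgf9* and *Fgf6*, ligands outside the set followed, were not part of this pool. Their mean levels over all libraries were 1.36 and 0.571 normalized CPM per kilobase.

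**Figure D2:**
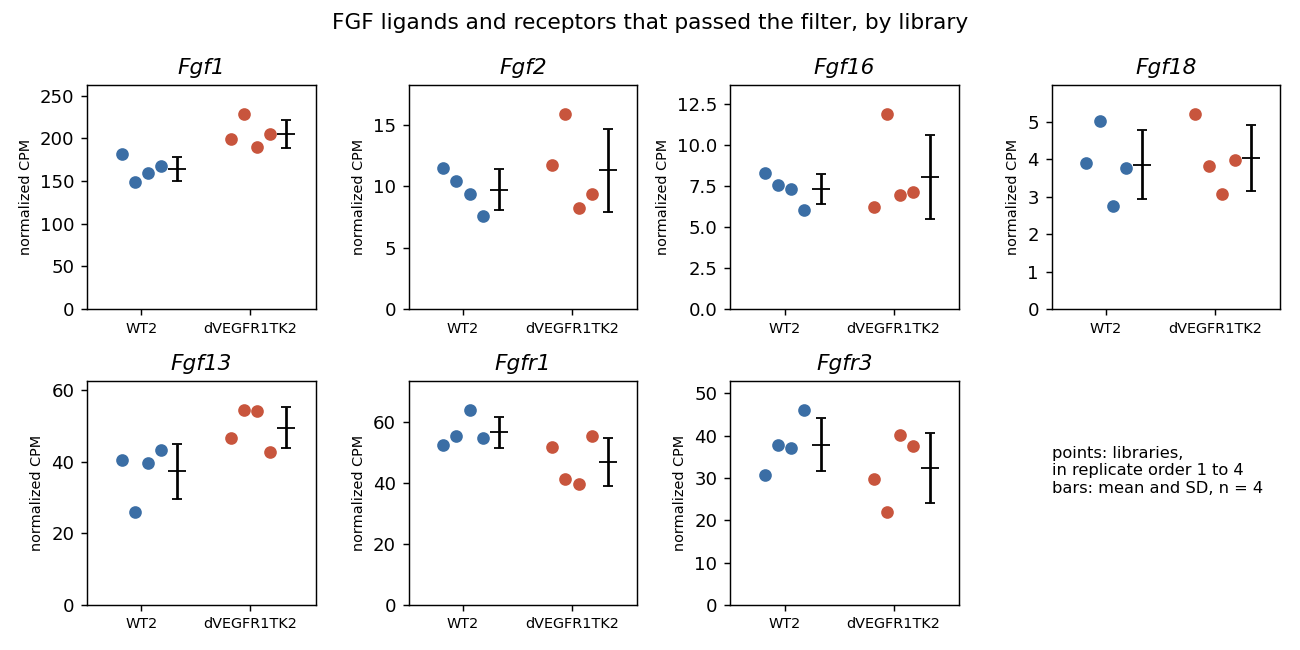
Normalized CPM (y axis, from 0) of the 7 genes that passed the filter, with 1 point per library in replicate order, and the mean with SD of each group (n = 4) beside the points. Only for *Fgf1* do all 4 dVEGFR1TK2 libraries lie above all 4 WT2 libraries, and *Fgf16* shows the high dVEGFR1TK2 replicate 2 at 11.9.

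Among the intracellular factors, *Fgf13* (ENSMUSG00000031137, chromosome X, 59062145 to 59568071, minus strand) carried nearly all the counts. It is the main partner of this kind for the cardiac sodium channel in the mouse ventricle. Normalized CPM was 40.4, 26.1, 39.7 and 43.3 in WT2 replicates 1 to 4, and 46.7, 54.5, 54.2 and 42.9 in dVEGFR1TK2 replicates 1 to 4. In dVEGFR1TK2, 3 of the 4 libraries were above all of WT2, and replicate 4 fell just below WT2 replicate 4. The means were 37.4 ± 7.71 and 49.6 ± 5.73 normalized CPM (SD, n = 4 each), a log2 fold change of 0.41 (SE 0.15, 95% interval 0.08 to 0.74) or a ratio of 1.33. Neither the exact permutation test (p = 0.0571) nor the quasi-likelihood test over all genes (FDR = 0.492) passed the threshold. WT2 replicate 2 was the lowest library, and without it the log2 fold change was 0.27 (FDR = 0.629).

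*Fgf12* (ENSMUSG00000022523, chromosome 16, 28160098 to 28753068, minus strand), a close relative of *Fgf13*, had 0, 2, 3 and 3 counts in WT2 replicates 1 to 4 and 2, 2, 1 and 0 in dVEGFR1TK2 replicates 1 to 4. The 13 counts compare with 4444 for *Fgf13*, a ratio of 528 per kilobase (exact 95% interval 308 to 992, for counting error only, as PCR copies were not removed by molecular tags). A count of 0 allows up to 0.222 CPM in WT2 replicate 1 and 0.246 CPM in dVEGFR1TK2 replicate 4, so that a difference between the groups was not detectable at this depth. Of the other members of this subfamily, *Fgf11* had 54 to 100 counts per library and a log2 fold change of −0.04 (SE 0.20, FDR = 0.972), and *Fgf14* had 1 to 8 counts and did not pass the filter.

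The receptor *Fgfr1* (ENSMUSG00000031565, chromosome 8, 25513654 to 25575718, plus strand), which is expressed by cardiomyocytes as well as by stromal and vessel cells, had 463 to 950 counts per library. Its normalized CPM was 52.2, 55.5, 63.9 and 54.8 in WT2 replicates 1 to 4. In dVEGFR1TK2 replicates 1 to 4 it was 51.7, 41.1, 39.5 and 55.2. Replicates 2 and 3 of dVEGFR1TK2 were far below WT2, replicate 1 just below, and replicate 4 within the WT2 range. The means, 56.6 ± 5.06 and 46.9 ± 7.76 normalized CPM (SD, n = 4 each), gave a log2 fold change of −0.27 (SE 0.12, 95% interval −0.54 to −0.005) and a ratio of 0.828. The gene did not pass the threshold (FDR = 0.553, exact permutation p = 0.0857). *Gm16159*, an antisense gene that shares 164 exon bases with *Fgfr1*, had no count in any library.

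*Fgfr3* (ENSMUSG00000054252, chromosome 5, 33721674 to 33737068, plus strand), a receptor best known for restraining bone growth, had 246 to 576 counts per library. It was at 30.6, 37.7, 37.1 and 46.1 normalized CPM in WT2 replicates 1 to 4 and at 29.7, 21.8, 40.1 and 37.5 in dVEGFR1TK2 replicates 1 to 4. The groups overlapped, with WT2 replicate 4 the highest and dVEGFR1TK2 replicate 2 the lowest library. Means of 37.9 ± 6.33 and 32.3 ± 8.24 (SD, n = 4 each) gave a log2 fold change of −0.23 (95% interval −0.62 to 0.16, FDR = 0.736). It was −0.083 without dVEGFR1TK2 replicate 2, −0.12 without WT2 replicate 4 and −0.35 without dVEGFR1TK2 replicate 3. A gene of the opposite strand, *G630022F23Rik*, shares 998 exon bases with *Fgfr3* and was not found by name among the genes listed.

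The remaining receptors were hardly counted in the LV. *Fgfr2* (ENSMUSG00000030849, chromosome 7, 130162451 to 133123350, minus strand), a receptor of epithelia in one of its splice forms, had 9, 14, 10 and 7 counts in WT2 replicates 1 to 4 and 2, 10, 6 and 11 in dVEGFR1TK2 replicates 1 to 4. Only WT2 replicate 2 reached a CPM of 1. Exons of *Fgfr2* share 314 bases with *Ctbp2* on the same strand. *Fgfr4* (ENSMUSG00000005320, chromosome 13, 55152640 to 55168759, plus strand), the receptor of the liver for endocrine FGFs, had 2, 1, 5 and 4 counts in WT2 and 1, 2, 1 and 3 in dVEGFR1TK2. The groups of both genes overlapped, and no fold change was estimated for them.

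*Fgfr1* and *Fgfr3* together made up nearly all of the receptor pool. Of the summed level per kilobase of the 4 receptors, *Fgfr1* made up 54.7%, 51.1%, 54.8% and 45.7% in WT2 replicates 1 to 4 and 55.5%, 56.6%, 41.4% and 50.9% in dVEGFR1TK2 replicates 1 to 4. The group means of 51.6% ± 4.24 and 51.1% ± 6.94 (SD, n = 4 each) differed by less than the spread (exact permutation p = 0.971). In WT2 replicate 4 and dVEGFR1TK2 replicate 3, *Fgfr3* was the larger part, at 53.1% and 57.9%. Per length of the longest transcript, the mean share of *Fgfr3* over all libraries was 43.9%, with *Fgfr1* making up nearly all the rest. On the scale of all exons *Fgfr2* made up at most 1.17% and *Fgfr4* at most 0.803% in any library.

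**Figure D3:**
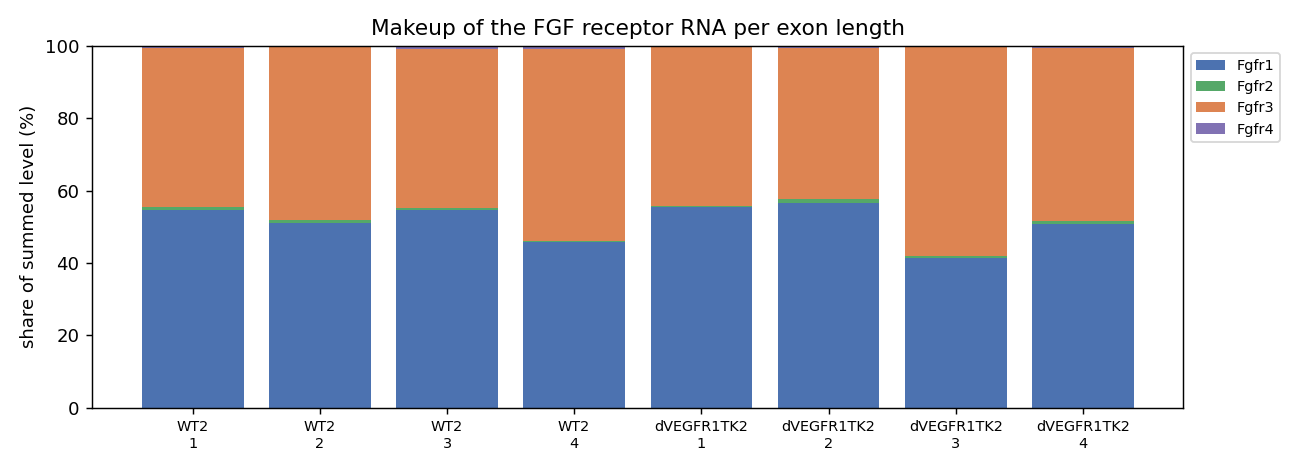
Share (%) of each receptor in the summed normalized CPM per kilobase of exon of the 4 receptors, with 1 bar per library. *Fgfr1* makes up 41.4% to 56.6% and *Fgfr3* nearly all the rest, with no separation of the groups.

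In the comparison of the groups, 0 of the 7 genes tested were called by edgeR's quasi-likelihood test, where 1 gene or 0.00738% of all genes tested was called. The likelihood ratio test and DESeq2 also called 0 of the 7, and their calls over all genes are not given here. By the quasi-likelihood test, an unadjusted p under 0.05 was reached by 3 of the 7, *Fgf1*, *Fgf13* and *Fgfr1*, against 8.96% of all genes tested. This number was 1, *Fgf1* in both cases, without dVEGFR1TK2 replicate 2 or without dVEGFR1TK2 replicate 3, fits for which the share of all genes is not given. The genes were chosen with earlier results of these data known, so these numbers are a description and no test of the set. Groups that did not overlap were found for 1 of the 7, *Fgf1*, against 4.98% of all genes tested. All 4 ligands and *Fgf13* had log2 fold changes above 0 and both receptors below 0, with a median of 0.14 over the 7 beside −0.001 over all genes, but the signs of *Fgf16* and *Fgf18* depended on single libraries, and the value of *Fgf2* was close to 0 without dVEGFR1TK2 replicate 2.

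**Figure D4:**
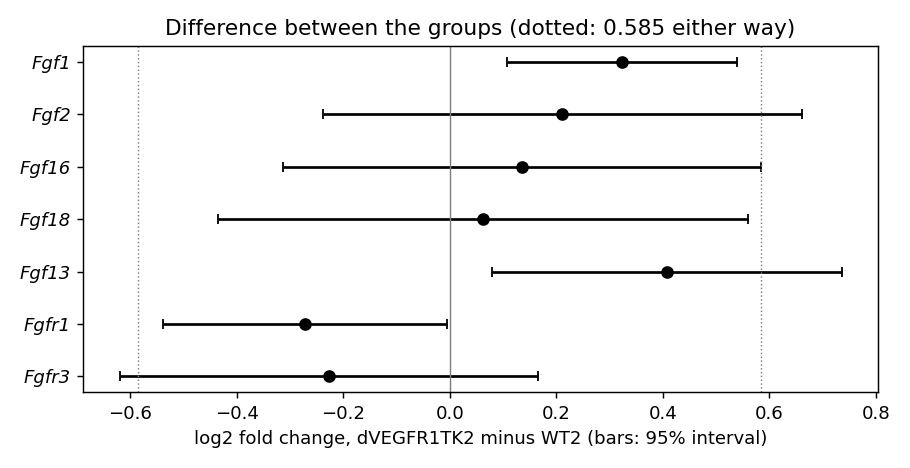
Log2 fold change of dVEGFR1TK2 against WT2 (x axis) with its 95% interval for the 7 genes tested, and dotted lines at a change of 1.5 times in both directions. The intervals of *Fgf1*, *Fgf13* and *Fgfr1* leave out 0, before any adjustment, and no point reaches the dotted lines.

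Markers of the cell types in the ventricle were set beside these values. Of the 6 cardiomyocyte markers, *Pln* alone had an unadjusted p under 0.05 and was higher in dVEGFR1TK2, and the list summed to 45434 to 69320 normalized CPM in WT2 and 58194 to 77056 in dVEGFR1TK2. WT2 replicate 2, the library with the least *Fgf1* and *Fgf13*, had the lowest cardiomyocyte sum. The highest sum was that of dVEGFR1TK2 replicate 3, which had the lowest *Fgf1* of its group, 189.5 normalized CPM, and 54.2 of *Fgf13*. WT2 replicate 3, with the highest sum of WT2, had 159 of *Fgf1*, below WT2 replicates 1 and 4. Of the 5 endothelial markers, 2 were lower with an unadjusted p under 0.05, with sums of 1705 to 2130 and 1573 to 1979 normalized CPM. The 5 markers of smooth muscle and pericytes, 2 of them lower by the same measure, summed to 985 to 1389 and 749 to 1033. Of 5 leukocyte markers 1 was lower (162 to 204 and 113 to 177), and of 5 fibroblast markers none (760.3 to 1108 and 453 to 975). No marker of these lists was at 0, and their part in the values of *Fgf1*, *Fgf13*, *Fgfr1* and *Fgfr3* was not tested.

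Of the other FGF genes, 16 in number, only *Fgf6*, *Fgf9* and *Fgf11* passed the filter. *Fgf9*, a secreted ligand related to *Fgf16*, was at 6.44, 5.30, 4.98 and 4.72 normalized CPM in WT2 replicates 1 to 4 and at 6.34, 7.99, 7.19 and 7.81 in dVEGFR1TK2 replicates 1 to 4. All but 1 of the dVEGFR1TK2 libraries were above WT2, with a log2 fold change of 0.45 (SE 0.16, FDR = 0.468). *Fgf6*, a ligand known from skeletal muscle, was at 3.46 ± 1.08 in WT2 and 1.86 ± 0.738 in dVEGFR1TK2 (SD, n = 4 each) with overlapping groups, a log2 fold change of −0.88 (SE 0.32, FDR = 0.492). Among the 13 that did not pass were the endocrine *Fgf21* with 14 and *Fgf23* with 15 counts over all libraries, and 5 genes, *Fgf3*, *Fgf4*, *Fgf8*, *Fgf15* and *Fgf22*, had no count at all. The endocrine coreceptors *Kl* and *Klb* had 1 count each.

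Over the whole list of 51 other pathway genes, 33 were tested and 0 were called by any of the 3 tests. DESeq2 gave no FDR for at least *Fgf6* and *Etv4*, which it could therefore not call. The quasi-likelihood test called 0.00738% of all genes tested, and the shares of the likelihood ratio test and DESeq2 are not given here. An unadjusted p under 0.05 by the quasi-likelihood test was reached by 7 of 33 (21.2%, beside 8.96% of all genes). Of these, 2 were higher and 5 lower in dVEGFR1TK2, beside 449 higher and 764 lower among all genes with such a p. The number was 4 without WT2 replicate 2 or without dVEGFR1TK2 replicate 2, fits for which the share of all genes is not given. The list was chosen with earlier results of these data known, so these numbers are a description and no test of the list. The median log2 fold change was −0.12, and 2 of the 33 genes had groups that did not overlap, close to the 4.98% of all genes tested. Among coreceptors and binding proteins, *Gpc1*, a heparan sulfate proteoglycan of the cell surface, had the highest level per kilobase of the list and nearly equal means, 609 ± 49.3 and 611 ± 23.0 normalized CPM (SD, n = 4 each). *Hspg2*, perlecan, which holds FGFs in basement membranes, was at 849 to 1237 normalized CPM in WT2 and 696 to 765 in dVEGFR1TK2 without overlap (log2 fold change −0.40, SE 0.13, FDR = 0.468), and its log2 fold change was −0.26 without WT2 replicate 3. *Sdc3*, a syndecan, had a log2 fold change of −0.29 (SE 0.12, FDR = 0.521).

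The 10 adaptors and effectors were all tested and had a median log2 fold change of −0.05. *Grb2*, which links receptors to Ras, was at 62.0 to 89.5 normalized CPM in WT2 and 92.2 to 96.2 in dVEGFR1TK2, without overlap, with a log2 fold change of 0.25 (SE 0.11, FDR = 0.556). WT2 replicate 3 was its lowest library, and without it the log2 fold change was 0.14. *Ptpn11*, the phosphatase SHP2, was among the 5 highest of the list per kilobase and had 356 ± 14.6 and 351 ± 47.6 normalized CPM (SD, n = 4 each). Among the feedback inhibitors and transcription factors downstream of FGF signaling, 11 of 12 were tested, and all 11 had log2 fold changes below 0, with a median of −0.16 and none called. Without dVEGFR1TK2 replicate 3, 8 of the 11 were below 0 (10 without WT2 replicate 2). With all 8 libraries, 7 of the 9 coreceptors and binding proteins, 7 of the 10 adaptors and effectors, and 27 of the 33 pathway genes in all were below 0. The same was seen for 6816 of the 13542 genes tested. *Spry1*, an inhibitor of receptor tyrosine kinase signaling, was at 38.0, 61.6, 43.1 and 54.5 normalized CPM in WT2 replicates 1 to 4 and 37.4, 28.5, 34.0 and 44.5 in dVEGFR1TK2 replicates 1 to 4, a log2 fold change of −0.45 (SE 0.17, FDR = 0.495) with overlapping groups. *Etv4*, an ETS factor induced by ERK, was close to the filter at 2.21 ± 0.928 and 1.12 ± 0.390 (SD, n = 4 each), a log2 fold change of −0.97 (SE 0.35, FDR = 0.486) that was −0.65 without WT2 replicate 2.

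**Figure D5:**
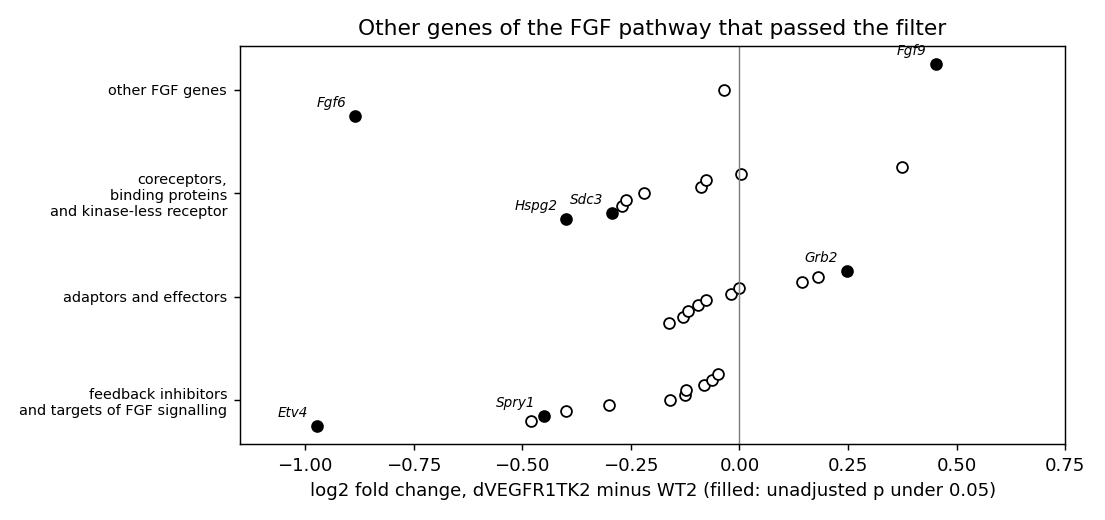
Log2 fold change of dVEGFR1TK2 against WT2 (x axis) of the 33 other FGF pathway genes tested, in 4 groups by role, with 1 point per gene, filled where the unadjusted p is under 0.05. All 11 feedback inhibitors and targets lie left of 0 with all 8 libraries (8 of 11 without dVEGFR1TK2 replicate 3), as do 27 of the 33 genes in all. None of the 33 genes was called.

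The 7 genes tested varied to different degrees between libraries whatever the group. The coefficient of variation of normalized CPM over the 8 libraries was 14.2% for *Fgf1* and 15.4% for *Fgfr1*, and 20.8% to 24.8% for the other 5. The largest SD of log2 normalized CPM were those of *Fgf13*, *Fgf2* and *Fgfr3*, at 0.33 each. For these 3, the genes with the most similar profile over the 8 libraries were picked from all genes tested by Pearson's r. *Fgf13* was followed most closely by *Kif6* (r = 0.984, rho = 0.976), *Tstd2* and the desmosomal cadherin *Dsg2* (r = 0.976, rho = 0.905). *Fgf2* was followed by *Hist1h2be* (r = 0.966, rho = 0.929), *Pcsk4* and *Tada3*, and *Fgfr3* by *Mcf2l* (r = 0.987, rho = 0.905), *Adgrg1* and *3425401B19Rik*. As the highest values among 13542 genes from libraries that share depth and composition, they are a description and carry no p.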

How the data were processed

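Total RNA of LVs was sequenced by Macrogen (stranded mRNA kit by the study's methods, depletion of ribosomal RNA by the labels). The authors trimmed reads with Trim Galore 0.4.4, aligned them to GRCm38 with STAR 2.5.4b and counted them with featureCounts on a GENCODE annotation, and deposited 1 table of raw counts per gene without normalization. The settings of the counting for strand and for reads with several alignments were not given in the sources used here. All 8 columns were used.

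Counts were filtered (CPM of 1 or more in 2 or more libraries), normalized by TMM and tested with edgeR 4.0.16 (glmQLFit, glmQLFTest, 8 libraries, no covariate) in R 4.3.3, with Benjamini-Hochberg adjustment (FDR) over all genes tested. The study's likelihood ratio test and DESeq2 1.42.0 were alternatives. The scripts were tested on simulated counts. Exon lengths and coordinates are from a later GENCODE release, also on GRCm38. Exact tests were 2-sided, used log2 normalized CPM with a prior count of 2 for single genes, and were run in Python 3.11.15. The intervals of fold changes are 95% intervals of the quasi-likelihood fit. Nothing in the labels says more on replicates than that each is a library, so p-values measure the spread between libraries, and no pair of libraries agreed within sampling noise (chi-square per degree of freedom 7.17 or more).

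The genes and lists were chosen with earlier results of these data known. Named are all 10 members, *Flt1*, genes that overlap a member, pathway genes with an unadjusted p under 0.05 or among the 5 highest levels, and the 3 closest profiles of the 3 most variable members. *Fgf11*, *Fgf14*, *Etv5*, *Spry2*, *Spred1*, genes with few or no counts, and single markers were named after their values were seen.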

Additional observations from a re-analysis of the deposited data

Results flagged for a closer look

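In dVEGFR1TK2 replicate 2, *Fgf16* had 11.9 normalized CPM against a median of 7.06 in its group of 4, and its gap to the nearest library took a share of 0.837 of the range of the group, above Dixon's 95% critical value for 4 libraries. It was the only one of 18 groups of values examined that passed this limit, and chance passes about 1 in 20. The same library had the highest normalized CPM of *Fgf1* and *Fgf2* and the lowest of *Fgfr3*. Its *Fgf13* was also the highest, but by little (54.5, beside 54.2 in dVEGFR1TK2 replicate 3). Without it, the log2 fold change of *Fgf16* was −0.11.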

How the results depend on the processing

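The tests were repeated with the likelihood ratio test, DESeq2, a robust fit, scaling by total counts or RLE factors, filterByExpr or no filter, the replicate number as a block, no limit on the fold change, and each library left out. Under all of them 0 FGF ligands and receptors and 0 other pathway genes were called, and the share of all genes called is given for the main fit only. DESeq2 gave no FDR for at least *Fgf6* and *Etv4*, which it could therefore not call. The log2 fold changes of the 7 members tested kept their direction in these fits, except for *Fgf16* without dVEGFR1TK2 replicate 2 (−0.11) and *Fgf18* without WT2 replicate 3 (−0.075) or dVEGFR1TK2 replicate 1 (−0.086). *Fgf16* ranged from −0.11 to 0.24 and *Fgf18* from −0.086 to 0.22. *Fgf1* ranged from 0.27 to 0.37 (FDR 0.153 to 0.941), *Fgf2* from 0.0042 to 0.34, *Fgf13* from 0.27 to 0.49, *Fgfr1* from −0.36 to −0.20 and *Fgfr3* from −0.35 to −0.083. Of the feedback genes, *Etv5*, *Spry2* and *Spred1* were above 0 without dVEGFR1TK2 replicate 3, as was *Spred1* without WT2 replicate 2. *Flt1* ranged from 1.10 to 1.29 and was called in every fit.

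With each library left out in turn, 1 to 3 members and 4 to 8 other pathway genes had an unadjusted p under 0.05. The share of all genes is given only with all 8 libraries (8.96%), so these changes in number cannot be read as particular to the FGF genes. In the same way, the difference in the *Fgfr1* share of the receptor level lay between −2.39 and 2.79 percentage points, above 0 without WT2 replicate 1 (0.589), WT2 replicate 3 (0.612) or dVEGFR1TK2 replicate 3 (2.79). The cause was not tested. With the replicate block, 2 members and 7 pathway genes had an unadjusted p under 0.05, beside 3 and 7 without it, and no call changed. Libraries of the same number deviated together in 1 of 4 pairs (correlation −0.06 to 0.34), so the numbers were not taken as pairs. Per length of the longest transcript, 7 of the 9 neighbour pairs passed, beside 6, but not the same pairs. *Fgfr1* and *Fgfr3*, and *Fgfr3* and *Fgf16* were gained, and *Fgf16* and *Fgf18* were lost. Among the rarely counted genes, *Fgfr2* and *Fgfr4* (adjusted exact p = 0.0176) were gained and *Fgfr4* and *Fgf12* (adjusted exact p = 0.0938) lost. These pairs are included in the numbers that passed, but no order is read from them. Per kilobase of exon and without the added count, *Fgf12* exceeded *Fgfr4* in WT2 replicate 2 (0.0234 and 0.0205). It also did so in dVEGFR1TK2 replicate 1 (0.0262 and 0.0229), and was lower in all others. Genes under about 1 CPM, with 11.4 to 16.2 reads at most, are limited by depth.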
